A study of Mus musculus with 9 samples.

Results

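The genes described here encode receptors for the classical neurotransmitters, and they were read in a leukemia, where the receptors have no synapse to serve. They were taken by symbol from the histone count tables: the GABA-A, glycine, AMPA, kainate, NMDA and metabotropic glutamate receptors, the nicotinic and muscarinic acetylcholine receptors, and the serotonin, dopamine, alpha adrenergic and beta adrenergic receptors whose symbols end in a number or in a number and a letter from a to f. This gave 89 genes of 26611 named genes, in 12 families. All 89 matched a RefSeq gene of assembly GRCm38.p6, the assembly also called mm10. The rule uses names only and no measured value, but it was set with earlier results of these data known.

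The data are chromatin immunoprecipitation sequencing of mouse leukemia driven by MLL-ENL, a fusion of the histone methyltransferase gene Kmt2a with Mllt1. The floxed group carries the label fl, the deleted group the label ΔERT2, and the rescue group the label ΔERT2 + Hhex-F, which adds a Flag-tagged Hhex, a homeodomain transcription factor, to the deletion. Which gene is floxed is not stated in the labels, and the series title, on Hhex and Polycomb repression of the cell cycle inhibitor gene Cdkn2a, is the ground for reading it as Hhex. Each group has 1 library for H3K27me3, 1 for H3K4me3 and 1 for the Flag tag, 9 in all, and the sources used here give neither the promoter driving the tagged gene nor the number of mice or clones behind a line. All 3 groups share the fusion. With 1 library a group, every ratio below describes 2 libraries and has no replicate check.

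Ionotropic receptors are channels built from several subunits: GABA-A and glycine receptors pass chloride and inhibit neurons, while AMPA, kainate, NMDA and nicotinic receptors pass cations and excite them. Metabotropic glutamate, muscarinic, serotonin, dopamine and adrenergic receptors signal through G proteins, apart from the channel subunits Htr3a and Htr3b. Many of the G-protein-coupled group have a coding region without introns, and most of these lie in short genes. Most channel subunits are spread over long, intron-rich genes. H3K27me3 is the mark set by Polycomb repressive complex 2, and in non-neuronal cells it often covers the CpG-rich starts of neuronal and developmental genes. H3K4me3 marks starts that are active or poised for use.

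H3K27me3 was counted by the authors over the whole gene span, so the results turn on span and on the start of the gene. The 7 promoters below were picked to show how unlike these starts can be, and they do not stand for short and long genes as classes. Each holds 300 bases from RefSeq on GRCm38.p6, from 250 before to 50 after a transcription start, written 5′ to 3′ on the gene's strand with every CG dinucleotide in capitals; where a gene has several starts, the one with the most CG is shown. Adrb1 (chr19:56721867-56722166, plus strand), Adra2a (chr19:54045009-54045308, plus), Adra2b (chr2:127362929-127363228, plus) and Drd1 (chr13:54055609-54055908, minus) belong to short genes with high H3K27me3 that fell in the deleted library. Chrm4 (chr2:91921939-91922238, plus) carried the most H3K4me3 of the receptor genes. Gabra3 (chrX:72656758-72657057, minus) and Gabrg1 (chr5:70842568-70842867, minus) belong to channel genes with little of either mark.
Adrb1: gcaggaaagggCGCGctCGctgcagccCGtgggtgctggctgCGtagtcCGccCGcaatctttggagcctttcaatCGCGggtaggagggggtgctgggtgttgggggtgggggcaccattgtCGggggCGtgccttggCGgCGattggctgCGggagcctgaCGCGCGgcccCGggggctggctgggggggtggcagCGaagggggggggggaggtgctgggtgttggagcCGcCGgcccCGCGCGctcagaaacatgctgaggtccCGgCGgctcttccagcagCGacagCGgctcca
Adra2a: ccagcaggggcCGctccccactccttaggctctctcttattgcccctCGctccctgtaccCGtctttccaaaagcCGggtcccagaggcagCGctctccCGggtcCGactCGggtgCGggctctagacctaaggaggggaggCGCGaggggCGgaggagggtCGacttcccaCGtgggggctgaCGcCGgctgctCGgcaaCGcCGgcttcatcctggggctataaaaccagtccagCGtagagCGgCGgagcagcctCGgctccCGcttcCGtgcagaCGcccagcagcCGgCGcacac
Adra2b: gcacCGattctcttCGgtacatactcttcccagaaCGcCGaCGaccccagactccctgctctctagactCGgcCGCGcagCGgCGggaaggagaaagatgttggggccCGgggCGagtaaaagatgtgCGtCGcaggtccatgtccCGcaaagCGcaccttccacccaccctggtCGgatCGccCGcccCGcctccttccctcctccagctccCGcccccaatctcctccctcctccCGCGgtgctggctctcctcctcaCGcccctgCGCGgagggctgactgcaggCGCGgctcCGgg
Drd1: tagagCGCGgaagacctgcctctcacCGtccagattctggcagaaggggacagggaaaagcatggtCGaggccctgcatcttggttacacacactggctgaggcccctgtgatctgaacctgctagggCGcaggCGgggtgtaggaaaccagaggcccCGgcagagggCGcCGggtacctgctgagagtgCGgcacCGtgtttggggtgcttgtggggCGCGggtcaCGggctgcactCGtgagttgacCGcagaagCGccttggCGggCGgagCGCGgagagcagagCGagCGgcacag
Chrm4: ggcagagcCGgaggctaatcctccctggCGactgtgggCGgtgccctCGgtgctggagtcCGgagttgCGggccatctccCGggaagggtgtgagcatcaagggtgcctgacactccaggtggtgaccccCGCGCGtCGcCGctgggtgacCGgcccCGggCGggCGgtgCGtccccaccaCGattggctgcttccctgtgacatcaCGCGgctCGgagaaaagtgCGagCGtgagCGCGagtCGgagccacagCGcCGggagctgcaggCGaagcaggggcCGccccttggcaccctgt
Gabra3: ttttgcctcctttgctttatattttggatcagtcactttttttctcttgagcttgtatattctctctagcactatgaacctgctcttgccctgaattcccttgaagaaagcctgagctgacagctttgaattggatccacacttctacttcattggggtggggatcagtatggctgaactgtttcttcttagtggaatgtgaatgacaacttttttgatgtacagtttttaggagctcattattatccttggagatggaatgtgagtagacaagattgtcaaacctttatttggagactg
Gabrg1: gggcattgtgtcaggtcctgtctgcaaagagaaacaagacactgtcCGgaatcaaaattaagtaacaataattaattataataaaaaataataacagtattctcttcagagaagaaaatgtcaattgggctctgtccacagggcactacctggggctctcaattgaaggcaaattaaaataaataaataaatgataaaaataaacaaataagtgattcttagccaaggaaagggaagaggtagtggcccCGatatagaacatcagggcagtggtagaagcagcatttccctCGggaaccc
The first 5 starts hold 28 CG in Adrb1, 28 in Adra2a, 29 in Adra2b, 23 in Drd1 and 30 in Chrm4, with a GC content of 65.7% to 72.3%. Gabra3 holds 0 CG and Gabrg1 holds 3, at a GC content of 39.3% and 38.3%.

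A promoter entry was present for 65 of the 89 genes. With CpG-rich taken as a GC content of at least 50% and an observed over expected CG of at least 0.6, 29 of the 65 (44.6%) were CpG-rich, beside 35.9% of 27025 genes with an entry, and the median CG number was 13 beside 8. By span, 6 of 13 genes under 10 kb, 12 of 31 of 10 to 100 kb and 11 of 21 over 100 kb were CpG-rich. The number of CG and log2 span correlated with r = 0.11, a description with no test.

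The level of H3K27me3 differed with gene length: the receptor genes with the most mark per kilobase had short spans, and several were noradrenaline or dopamine receptor genes. Not every short gene was high. Levels are given as CPM per kb of counted span, CPM being counts scaled to the library's total in named genes, the only scale on which genes of different length are compared here. The floxed library held 228 counts over the 2491 bp of Adrb1, 247 over the 2996 bp of Drd4, 291 over the 3936 bp of Adra2b, 268 over the 3801 bp of Adra2a and 243 over the 3813 bp of Adrb3. Those 5 had the highest densities, 37.4, 33.7, 30.2, 28.8 and 26.1 CPM per kb. Adra2c, at 26.0, was next and cannot be separated from Adrb3 at these counts. The lowest densities among the genes with enough counts to be read were 0.0634 CPM per kb for Gria3, 0.0849 for Gabrg1, 0.0897 for Gabra3 and 0.0951 for Glra2. These are an AMPA subunit, 2 GABA-A subunits and a glycine subunit, all channel genes.

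In spans under 10 kb (15 genes) the median densities of the floxed, deleted and rescue libraries were 11.8, 7.05 and 10.6 CPM per kb. Genes of 10 to 100 kb (43) had 1.97, 2.30 and 2.28, and genes over 100 kb (31) had 0.245, 0.247 and 0.241. All named genes of the same classes had medians of 0.200, 0.188 and 0.315 in floxed, so the short and middle receptor genes lay above the genes of their length and the long ones did not. Of the 15 short receptor genes, 11 had a floxed density in the top 10% of all named genes, beside 12 of the 43 middle ones and 1 of the 31 long ones. The exception is Grik4, a kainate subunit gene of 423960 bp with 4617, 4853 and 7661 counts in floxed, deleted and rescue, a density of 4.46, 4.51 and 4.30 CPM per kb. Across the 89 genes, log2 span and log2 density correlated with a Pearson r of -0.67 and a Spearman rho of -0.64, as a description of genes that share 1 library and whose density has the span as its divisor. A count over a whole span does not show where in the gene the mark lies, and mark at the start alone is diluted by the length.

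**Figure D1:**
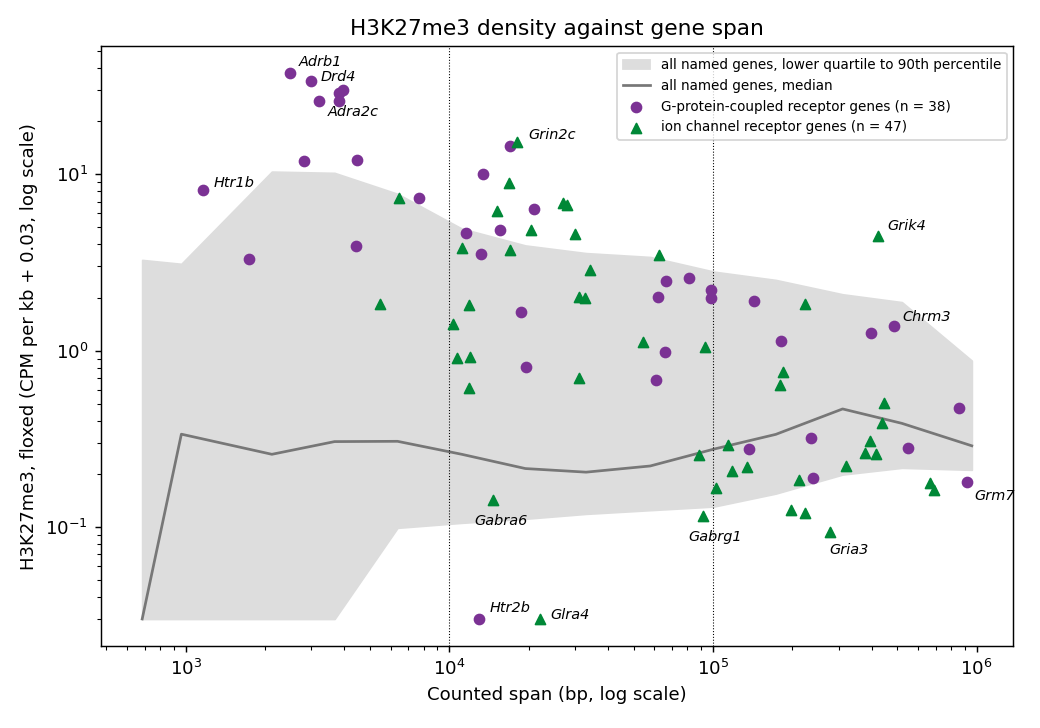
Each point is a receptor gene, placed by its counted span in bp and its H3K27me3 density in the floxed library (CPM per kb plus 0.03, both axes log), with the median and spread of all named genes in grey and dotted lines at 10 and 100 kb. The short adrenergic and dopamine receptor genes sit at the top left, from Adrb1 at 37.4 CPM per kb, and Gria3 at 0.0634 is the lowest gene with enough counts to be read.

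Length and the lack of coding introns are not the same thing among these genes. From a list of the receptor genes whose coding region is known to lack introns, 11 had short spans (among them Adra2a, Adra2b, Adra2c, Adrb1, Chrm4, Chrm5, Drd1, Drd5, Htr1a and Htr1b) and a median floxed density of 11.8 CPM per kb. The other 5 (Chrm1, Chrm2, Chrm3, Htr1d and Htr1f) have long noncoding exons or introns before the coding exon, and a median of 1.10. The 4 short genes with coding introns (Adrb3, Chrna10, Drd4 and Grin3b) had a median of 16.7. Neither set was uniform: Chrna10 had 1.80 CPM per kb in floxed and Drd4, also short with coding introns, had 33.7. Htr1d was the highest of the 5, with 322, 322 and 600 counts in floxed, deleted and rescue and 6.31 CPM per kb in floxed. Chrm2 was the lowest, with 82, 109 and 210 counts over 136691 bp and 0.245 CPM per kb. Chrm3 held 1594, 1952 and 2241 counts and Htr1f 489, 615 and 646, at 1.35 and 1.10 CPM per kb in floxed. Chrm1, the receptor of cortical and glandular acetylcholine signalling, held 37, 41 and 45.

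CpG-rich starts went with higher density within each length class. Median floxed density was 20.4 CPM per kb in the 6 short genes with a CpG-rich start and 7.27 in the 7 short genes without, 5.47 against 1.95 in the middle class (12 and 19 genes), and 0.262 against 0.152 in the long class (11 and 10 genes). The number of CG in the promoter and log2 density correlated with r = 0.30 and rho = 0.35 over 65 genes, a description with no test. Drd4 was an exception: its start was not CpG-rich by these limits, with 15 CG, and its density was the second highest.

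The GABA-A, AMPA and glycine channel families had the lowest median densities. Median floxed densities were 0.154 CPM per kb over 15 GABA-A genes, 0.184 over 4 AMPA genes and 0.412 over 4 glycine genes. Among the GABA-A genes, the retinal rho subunits Gabrr1, Gabrr2 and Gabrr3 were the exceptions, at 1.98, 1.95 and 1.09. Metabotropic glutamate genes had a median of 0.831, muscarinic genes 1.35, nicotinic genes 1.80, kainate genes 1.81, serotonin genes 2.03 and NMDA genes 2.85. Dopamine, alpha adrenergic and beta adrenergic genes had 11.8, 20.2 and 26.1. These families were not uniform: the dopamine genes ran from 0.655 to 33.7 and the alpha adrenergic genes from 1.97 to 30.2. Among the NMDA genes, the cerebellar subunit Grin2c (670, 530 and 1122 counts, 15.2 CPM per kb in floxed) and the obligatory subunit Grin1 (457, 422 and 757 counts, 6.68 CPM per kb) lay far above Grin2a (0.228) and Grin2b (0.471). The longest spans were read at low density: Grm7 at 921633 bp held 337, 373 and 512 counts, Grm8 at 859249 bp 923, 995 and 1735, Grik2 at 689292 bp 222, 247 and 403, Gabrg3 at 662630 bp 240, 287 and 542, and Grm5 at 550896 bp 339, 416 and 719. Their floxed densities ran from 0.132 in Grik2 to 0.439 in Grm8.

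Some of the low values are limits of counting. Htr2b, which lies inside Psmd1, and Glra4, which lies inside BC065397, held 0 counts in all 3 H3K27me3 libraries. Of 329 named genes of at least 10 kb with 0 counts in all 3, 237 (72.0%) lie wholly inside another counted gene, against 55 of 13893 (0.396%) of those with any count, so the 0 of Htr2b and Glra4 cannot be read as absence of the mark. Chrna10, inside Art1, and Chrm5, with 75.4% of its RefSeq span inside Aven, share that limit, as do Htr1b (34.3% overlapped) and Grin1 (26.5%). With these, 7 genes did not reach the mean of 20 counts over the 3 libraries below which no ratio is called, among them Chrm5 (14, 21 and 21 counts), Htr1b (23, 10 and 21), Htr2b, Glra4, Gabra6 (4, 5 and 6) and Chrnb1 (17, 16 and 22). The other 82 are called measured, of 10604 measured genes in all.

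The deleted library against the floxed one asks how the mark stood after the deletion. Of the short noradrenaline and dopamine receptor genes, Adrb1, Adrb3, Adra2a, Adra2b, Drd1 and Drd4 were lower, by about 0.70 to 0.97 in log2. The short genes Adra2c and Drd5 were not called. A call needed a CPM ratio of 1.5 or more in either direction and required that the 95% exact binomial interval of the ratio, which covers counting error only, leave out 1. By that rule 6 of the 82 measured receptor genes were lower, beside 5.39% of all measured genes, and 5 were higher (Gabra5, Chrna2, Grm3, Htr1a and Chrnb3), beside 4.72%. Both counts are near those shares. The median log2 ratio was 0.09, against 0.02 over all measured genes. Whether a lower count means fewer cells with the mark or less mark per cell cannot be told apart in these bulk libraries.

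Adrb1, the beta receptor that drives heart rate, had 228, 120 and 427 counts in floxed, deleted and rescue, or 37.4, 19.0 and 40.8 CPM per kb. The deleted library was the low one, with a ratio to floxed of 0.507 (0.403 to 0.636). Adrb3, the beta receptor of fat tissue, had 243, 141 and 375 counts, with a ratio of 0.559 (0.451 to 0.691). Adra2a and Adra2b, which encode alpha receptors that dampen transmitter release and set vascular tone, had 268, 171 and 522 counts and 291, 181 and 434 counts. Their ratios were 0.615 (0.505 to 0.748) and 0.60 (0.495 to 0.724). Adra2c, the third of these genes and of like length and density, did not move with them: it had 203, 228 and 421 counts, with a ratio of 1.08 (0.892 to 1.31), an interval that lies above those of Adra2a and Adra2b.

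Among the dopamine receptor genes, Drd1 and Drd4 were the lower ones. Drd1, the main striatal receptor coupled to cyclic AMP production, had 131, 80 and 214 counts, with a ratio of 0.589 (0.440 to 0.783). Drd4, a receptor that lowers cyclic AMP, had 247, 151 and 385 counts, with a ratio of 0.589 (0.478 to 0.725). Drd5, the closest relative of Drd1, had 81, 76 and 125 counts, with a ratio of 0.905 (0.653 to 1.25), which overlaps the interval of Drd1. The longer genes Drd2 (397, 499 and 676 counts) and Drd3 (97, 125 and 163) were not called, with log2 ratios of 0.28 and 0.31. Htr1b, a serotonin receptor on nerve endings, was under the minimum of counts, with 23, 10 and 21.

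The receptor genes that were higher in the deleted library came from 4 families. Grm3, a metabotropic glutamate receptor gene of 240117 bp, had 93, 159 and 169 counts in floxed, deleted and rescue and a ratio of 1.65 (1.27 to 2.15). Gabra5, the GABA-A subunit of hippocampal extrasynaptic receptors, had 34, 62 and 70 counts, with a ratio of 1.76 (1.14 to 2.76). The nicotinic subunit genes Chrna2 (26, 46 and 110 counts) and Chrnb3 (51, 80 and 105) had ratios of 1.71 (1.03 to 2.87) and 1.51 (1.05 to 2.19), and Htr1a, the serotonin autoreceptor gene, had 42, 67 and 50 counts, with a ratio of 1.54 (1.03 to 2.32). All but Grm3 and Gabra5 had lower bounds close to 1. Calls for Chrna2, Chrnb3 and Htr1a were lost when the libraries were scaled to a list of housekeeping genes, which gave 7 receptor genes lower and 2 higher in place of 6 and 5. The call of Chrnb3 was lost with edgeR's TMM and DESeq2's size factors as well.

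**Figure D2:**
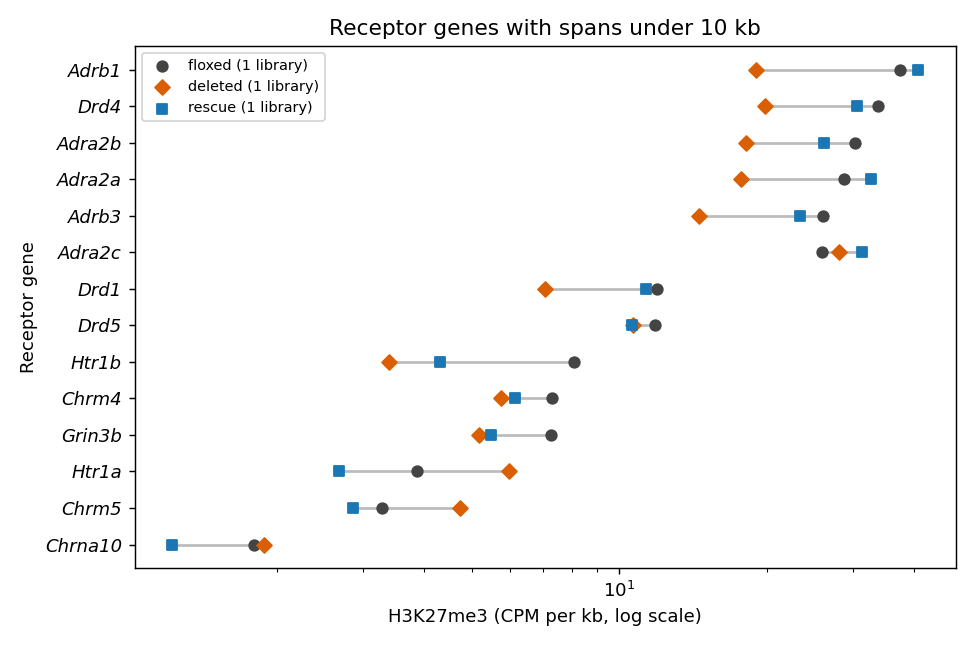
Each row is a receptor gene with a span under 10 kb, with its H3K27me3 density in the floxed, deleted and rescue library (CPM per kb, log axis, 1 library each). The deleted value lies left of both others in the called genes Adrb1, Drd4, Adra2b, Adra2a, Adrb3 and Drd1, in Grin3b and Chrm4, which were not called, and in Htr1b, which was below the minimum of counts, but not in Adra2c, and Htr1a has its deleted value on the right.

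By length, 6 of 12 measured short receptor genes were lower and 1 was higher, and their median log2 ratio was -0.59. All 2382 measured short genes gave 337 lower and 113 higher and a median of -0.19. In the middle class 0 of 39 receptor genes were lower and 2 higher (median 0.01), beside 188 lower and 320 higher of 5981 genes of that length (median 0.03). In the long class 0 of 31 were lower and 2 higher (median 0.14), beside 47 and 67 of 2241 (median 0.11). Within the short class, 4 of 8 measured genes without coding introns and 2 of 4 with coding introns were lower, while the 5 longer genes without coding introns gave 0 lower and 0 higher, with a median of 0.24. Short receptor genes held 0.0838%, 0.0580% and 0.0805% of the H3K27me3 counts of the floxed, deleted and rescue libraries. The same share for all short genes was 10.8%, 8.93% and 10.2%.

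The same comparison was set against density, measured in the rescue library because it enters neither side of the ratio. All measured genes were divided into 10 classes of equal number by that density. In the top class, at 8.35 CPM per kb and above, 6 of 11 receptor genes were lower (54.5%) with a median log2 ratio of -0.70, beside 266 of 1061 genes (25.1%) with a median of -0.43. These 11 were the 6 genes named, Adra2c, Drd5 and 3 longer ones, Adra1d, Grin2c and Htr6, whose log2 ratios of -0.37, -0.39 and -0.07 were not called. The top class runs up to 149 CPM per kb with a median of 15.3 over all genes, and Adrb1 stood at 40.8 in rescue. Receptor genes and all genes in that class were therefore not matched for density. In the ninth class 0 of 10 receptor genes were lower, with a median of -0.17 beside -0.16 for all genes. Most of the long receptor genes lay at the other end: 17 of 31 were in the lowest 2 classes, where the medians for all genes were -0.03 and 0.09. Span and density moved together in these genes, and their separate parts in the ratio were not tested.

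**Figure D3:**
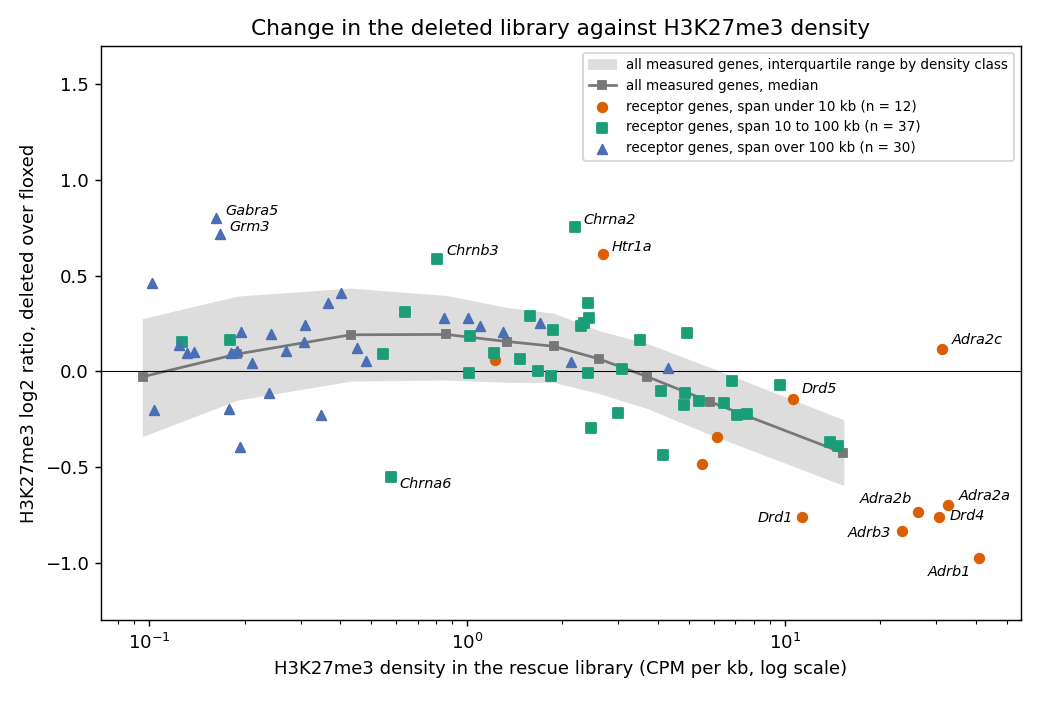
Each point is a measured receptor gene, placed by its H3K27me3 density in the rescue library (CPM per kb, log axis) and its log2 ratio of deleted over floxed, with the median and interquartile range of all measured genes by density class in grey. The short genes Adrb1, Adrb3, Drd1, Drd4, Adra2a and Adra2b, all called lower, lie at -0.70 to -0.97, and Adra2c, not called, lies at 0.11. A lower call requires a ratio about as low as the bottom edge of the grey band. The place of the called genes below the band was therefore largely set by the call.

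By family, 2 of 2 measured beta adrenergic genes were lower in this comparison (median log2 ratio -0.90). So were 2 of 6 alpha adrenergic genes (-0.20) and 2 of 5 dopamine genes (-0.14). Of all measured genes 5.39% were lower, and of the short ones 337 of 2382. Families of this size are too small to be set apart from those shares. No gene was called lower among the 14 GABA-A, 3 glycine, 4 AMPA, 5 kainate, 7 NMDA, 8 metabotropic glutamate, 12 nicotinic, 4 muscarinic and 12 serotonin genes measured. Their medians ran from -0.17 for NMDA genes to 0.28 for glycine genes. The serotonin median was 0.01, with Htr6 at 326, 322 and 545 counts, Htr3b at 336, 322 and 612 and Htr7 at 525, 650 and 966. The 4 genes Chrna10, Chrm5, Htr2b and Glra4 had over 50% of their RefSeq span inside another gene. Only Chrna10 reached the minimum of counts, and it was not called. The others could not be called.

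The rescue line asks where the mark stood once a tagged Hhex was added to the deletion. The rescue and deleted libraries share the deleted one with the comparison above, so each comparison is given for itself and neither supports the other. Adrb1 was higher in rescue than in deleted, with a ratio of 2.15 (1.75 to 2.65). Adra2a (1.84, 1.55 to 2.20), Drd1 (1.61, 1.24 to 2.11), Adrb3 (1.60, 1.32 to 1.96) and Drd4 (1.54, 1.27 to 1.87) were also higher. Adra2b, at 1.45 (1.21 to 1.73), missed the limit of 1.5. Of 82 measured receptor genes, 7 were higher, beside 7.07% of all measured genes, and 4 lower, beside 11.3%. The median log2 ratio was -0.01 against -0.06 over all genes.

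Rescue against floxed shares no library with the first ratio other than floxed and leaves the deleted library out. Here 1 of 82 receptor genes was lower, beside 8.05% of all measured genes, and 2 were higher, beside 5.72%. None of the 6 genes that were low in the deleted library was called: the ratios were 1.09 (0.925 to 1.28) for Adrb1, 1.13 (0.976 to 1.32) for Adra2a, 0.95 (0.761 to 1.19) for Drd1, 0.906 (0.771 to 1.07) for Drd4, 0.897 (0.762 to 1.06) for Adrb3 and 0.867 (0.746 to 1.01) for Adra2b. The intervals all hold 1. The short class had a median log2 ratio of -0.15, beside -0.08 for all short genes, and the long class 0.09 beside -0.01.

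The channel genes Gria3 and Grin2b stood apart in the rescue library. Gria3, an X-linked AMPA receptor subunit gene, had 43, 48 and 220 counts in floxed, deleted and rescue over 277298 bp. Floxed and deleted were alike and rescue was the high one, with ratios of 2.98 (2.14 to 4.23) to floxed and 2.76 (2.02 to 3.86) to deleted. Even so its rescue density was 0.189 CPM per kb, far below the short genes and below the median of all named genes, 0.231. The list of housekeeping genes had medians of 0.0873, 0.102 and 0.158 CPM per kb in floxed, deleted and rescue. Grin2b, the NMDA subunit gene of the developing forebrain, had 511, 606 and 450 counts over 443717 bp. The rescue library was the deepest of the 3 and still had the fewest counts there, with ratios of 0.512 (0.450 to 0.582) to floxed and 0.448 (0.396 to 0.507) to deleted. Of the genes next to them, only Emp1, before Grin2b, was measured: it had 112, 109 and 173 counts and was not called in any comparison. Thoc2, after Gria3, had 15, 8 and 17, Cypt14, before Gria3, had 2, 1 and 1, and Gm8994, after Grin2b, had 4, 7 and 5, too few to be read.

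Chrna2, a nicotinic subunit gene of 11989 bp, had 26, 46 and 110 counts, lowest in floxed and highest in rescue, with a ratio of rescue to floxed of 2.46 (1.59 to 3.93). Its neighbour Ephx2 (233, 286 and 415 counts) was not called in any comparison, and Ptk2b, 308 bp away on the other side (29, 18 and 56), was called only as higher in rescue than in deleted (1.88, 1.09 to 3.39). Chrna1, the muscle subunit of the nicotinic receptor, had 154, 118 and 297 counts and was higher in rescue than in deleted (1.52, 1.22 to 1.90). The gene before it, Wipf1, had 204, 192 and 895 counts and was higher too (2.81, 2.40 to 3.30), while the gene after it, Chn1os3, had 104, 141 and 151 and was lower (0.646, 0.510 to 0.819). Htr1a (0.450, 0.306 to 0.659), Htr1f (0.634, 0.567 to 0.709) and Grm3 (0.641, 0.513 to 0.801) were lower in rescue than in deleted. Their rescue against floxed values were not called, with log2 ratios of -0.52, -0.38 and 0.08.

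**Figure D4:**
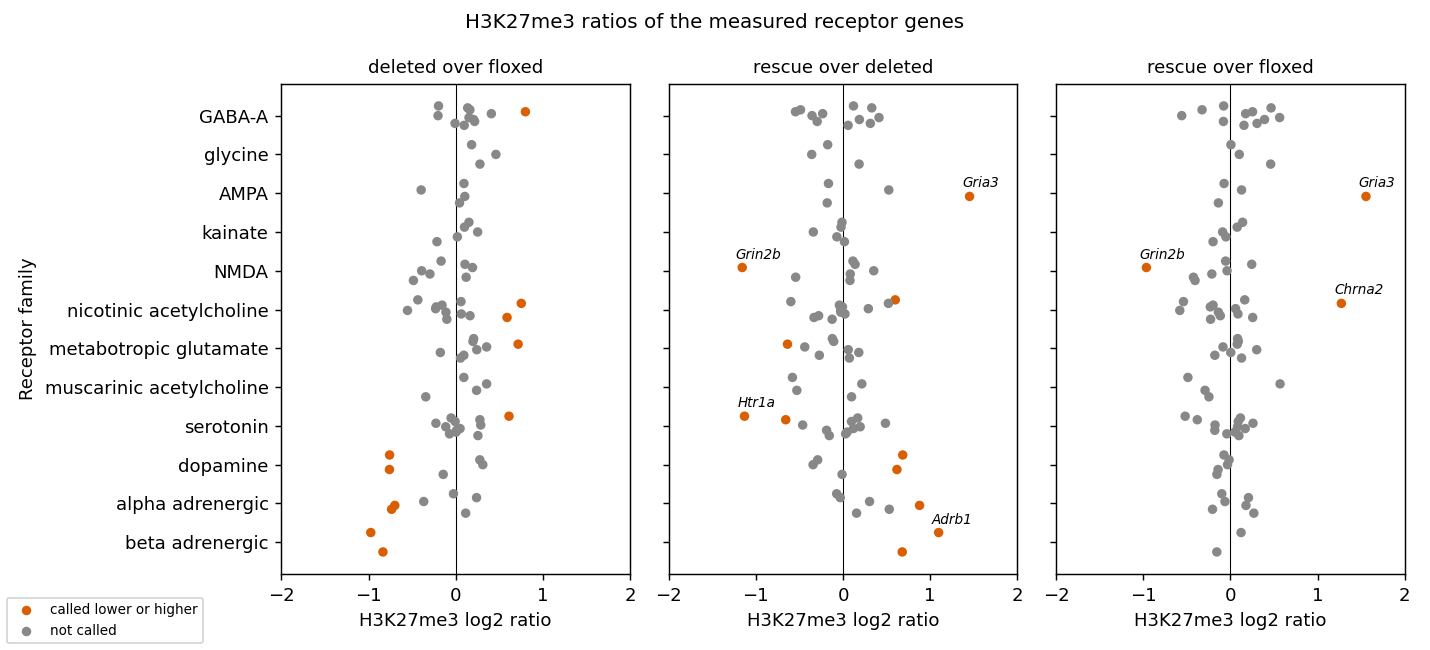
Each point is a measured receptor gene in its family, placed by its H3K27me3 log2 ratio in the 3 comparisons of single libraries, with called genes in orange. Orange points on the left of the first panel are the called genes of the beta adrenergic, alpha adrenergic and dopamine families. In the panel of rescue over floxed the called genes are Gria3, Chrna2 and Grin2b.

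The scaling of the libraries mattered for the rescue comparisons. With edgeR's TMM factors, rescue against deleted gave 3 receptor genes lower and 10 higher in place of 4 and 7, and all measured genes 991 lower and 935 higher in place of 1196 and 750. Scaled to the housekeeping list, rescue against deleted gave 11 lower and 3 higher, and rescue against floxed 9 lower and 2 higher. That scaling moved the median log2 ratio of all measured genes to -0.10, -0.21 and -0.33 in the 3 comparisons. The 6 lower calls of deleted against floxed held under all 3 other scalings, and so did the calls of Gria3, Grin2b and Chrna2 in rescue against floxed. The higher calls of Adrb3, Drd1, Drd4 and Chrna1 in rescue against deleted were lost with the housekeeping scaling, while those of Adrb1, Adra2a and Gria3 held. Of the lower calls in that comparison, Grm3 was lost with TMM factors, and Grin2b, Htr1a and Htr1f held under all 3 other scalings.

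H3K4me3 was counted by the authors in a short window of fixed size per gene, and the sources used here do not say where it lies relative to the start. Most receptor genes had close to none: 18 of 89 (20.2%) were at 0 in all 3 libraries, beside 19.8% of all named genes, and 60 (67.4%) had at most 3 counts in each, beside 59.8%. A count of 0 allows up to 3 counts in a library. A mean of at least 20 counts was reached by 10 receptor genes (11.2%), beside 25.1% of all named genes. Of the 10, 7 encode adrenergic, serotonin or dopamine receptors, and GABA-A, glycine, kainate, metabotropic glutamate and nicotinic genes had none. The receptor genes held 0.115% of H3K4me3 counts in floxed (95% Wilson interval 0.107% to 0.123%), 0.144% in deleted (0.133% to 0.155%) and 0.121% in rescue (0.110% to 0.132%). Their share of H3K27me3 counts was 1.06%, 1.09% and 1.04%.

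Chrm4, a muscarinic receptor gene of 7641 bp, had the most, with 152, 93 and 118 counts in floxed, deleted and rescue, or 236, 221 and 299 CPM. That lies above the median of the myeloid marker genes of the leukemia, 131 CPM in floxed. Chrm4 also carried H3K27me3 at 7.28, 5.73 and 6.13 CPM per kb. Its promoter, shown above, has 30 CG. Adra2a followed with 113, 82 and 53 counts, then Adra2b with 44, 45 and 31, Htr2a with 41, 29 and 15, and Adrb1 with 32, 31 and 24. Lower counts were read at Gria3 (31, 27 and 12), Adra1a (29, 21 and 13), Grin2d (20, 18 and 22) and Drd2 (17, 19 and 24). Drd4 (16, 20 and 10) and Grik5, a kainate subunit gene (26, 13 and 16), reached 20 in a single library.

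Both marks were therefore read at the same gene in several cases. Adra2a, Adra2b and Adrb1 had H3K4me3 counts and were among the genes densest in H3K27me3, while Adrb3, Adra2c and Drd1, also in the top class of H3K27me3 density, had at most 8 H3K4me3 counts in any library. In bulk libraries both marks on 1 gene may come from the same cells or from different ones, which cannot be told apart. Of the 29 genes with a CpG-rich start, 6 were measured for H3K4me3, against 1 of the 36 with a start that was not.

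**Figure D5:**
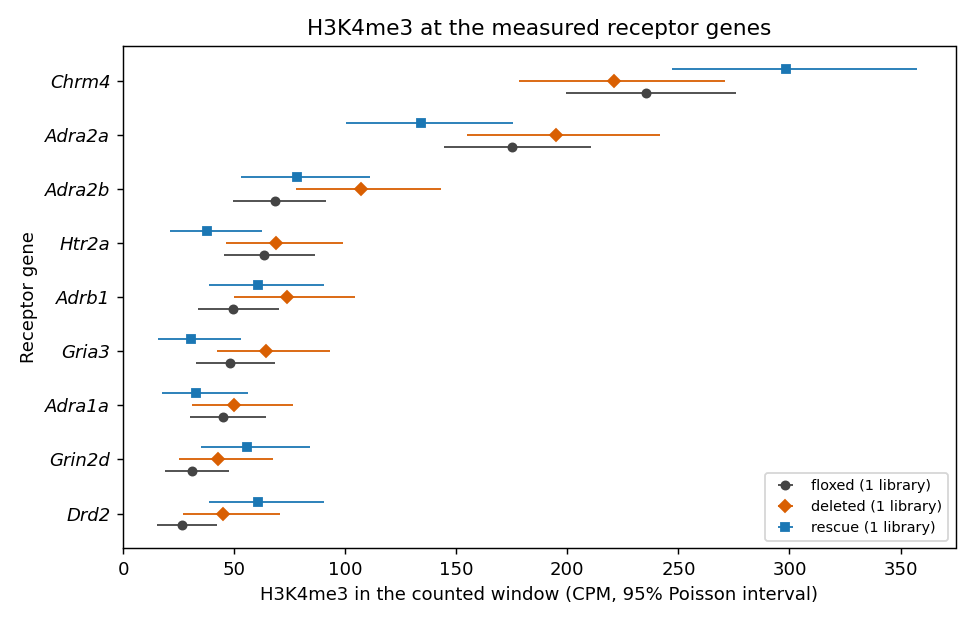
Each row is a receptor gene measured for H3K4me3, with the value of its window in the floxed, deleted and rescue library (CPM, 1 library each) and a 95% Poisson interval that covers counting error only. Chrm4 lies at 221 to 299 CPM, Adra2a at 134 to 195, and the intervals of the 3 libraries overlap in every row.

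Few H3K4me3 ratios were called. Adra2b was higher in deleted than in floxed (1.57, 1.01 to 2.43), the only one of 10, beside 3.02% of measured genes, and with edgeR's TMM factors that call was lost. No receptor gene was called lower in that comparison, beside 4.39%. Gria3 was lower in rescue than in deleted (0.473, 0.218 to 0.966), beside 5.97%, and 0 were higher, beside 4.49%. Drd2 was higher in rescue than in floxed (2.31, 1.19 to 4.57), beside 1.92%, and 0 were lower, beside 3.92%. For deleted against floxed the median log2 ratio of the 10 was 0.28, with 9 above 0, beside -0.03 for all measured genes. For rescue against deleted, which shares the deleted library, it was -0.42 beside 0.03, and for rescue against floxed -0.02 beside -0.01. In CPM, Gria3 had 48.0, 64.2 and 30.4 for H3K4me3 in floxed, deleted and rescue, and 17.6, 18.9 and 52.3 for H3K27me3. Its H3K4me3 ratio of rescue to floxed was not called (0.632, 0.296 to 1.27). The H3K4me3 call against deleted rests on 12 rescue counts. It was lost when the libraries were scaled to olfactory and vomeronasal receptor genes.

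The genes that serve these receptors were read from 4 lists. Among 27 measured receptor subunits outside the families above, such as those for adenosine, ATP, histamine and cannabinoids, 3 were lower in deleted than in floxed for H3K27me3 and 2 higher; the shares over all measured genes, for all 4 lists, were 5.39% lower and 4.72% higher. Gabbr1, a subunit of the GABA-B receptor, had 58, 31 and 23 counts, the adenosine receptor gene Adora2a 114, 77 and 207, and the ATP-gated channel gene P2rx5 80, 49 and 127. The higher ones were Cnr1, the cannabinoid receptor gene of the brain, with 10, 37 and 13, and Chrng, the fetal muscle nicotinic subunit, with 48, 77 and 109. The 34 measured anchoring and auxiliary genes gave 0 lower and 0 higher at a median log2 ratio of 0.11. Of 15 measured genes for transmitter synthesis and breakdown, 2 were lower: Pnmt, which makes adrenaline (46, 26 and 75), and Ache, which breaks down acetylcholine (171, 115 and 226). Of 20 measured transporter genes, Slc32a1, the vesicular transporter of GABA and glycine, was lower (69, 42 and 112 counts, ratio 0.587, 0.390 to 0.874), and its H3K4me3 was higher in deleted (76, 80 and 53 counts, ratio 1.61, 1.16 to 2.24). For H3K4me3 the subunit list gave 1 lower and 2 higher of 10 measured genes, and the anchoring list 1 and 0 of 11. The synthesis list gave 0 and 0 of 3, and the transporter list 0 and 1 of 6. The shares over all measured genes were 4.39% lower and 3.02% higher.

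In rescue against floxed, the subunit list gave 2 lower (Gabbr1 and P2rx3) and 0 higher of 27, the anchoring list 3 lower and 1 higher of 34, the synthesis list 0 and 0 of 15, and the transporter list 1 lower and 0 higher of 20, beside 8.05% lower and 5.72% higher of all measured genes. Gphn, which encodes the scaffold gephyrin under GABA-A and glycine receptors, had 440, 485 and 340 counts (0.449, 0.389 to 0.519). Dlg4, which encodes the scaffold PSD-95 of glutamate synapses, had 73, 81 and 50 (0.398, 0.272 to 0.579), and Nlgn2, an adhesion gene of inhibitory synapses, 74, 64 and 78 (0.613, 0.440 to 0.854). Musk, the kinase that clusters nicotinic receptors at the muscle endplate, was higher, with 146, 170 and 438 (1.74, 1.44 to 2.12). Slc6a4, the serotonin transporter gene, had 485, 415 and 471 (0.565, 0.496 to 0.642). In rescue against deleted the subunit list gave 3 lower and 2 higher of 27, the anchoring list 3 and 1 of 34, the synthesis list 1 and 2 of 15, and the transporter list 0 and 1 of 20, beside 11.3% lower and 7.07% higher of all measured genes.

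No Flag summit lay within 10 kb of a receptor gene. The authors' summit lists hold 475 positions in floxed, 220 in deleted and 429 in rescue, and floxed and deleted carry no tagged protein by their labels. A count of 0 allows a share of up to 0.632%, 1.36% and 0.699% of the summits, for counting error only. The RefSeq spans of the 89 genes add up to 12.7 Mb. How many summits lie near other genes of such length is not given here. The 0 can therefore not be read as particular to the receptor genes, or as absence of binding.

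Several receptor genes are neighbours and share their surroundings. Chrna5, Chrna3 and Chrnb4 lie in a row on chromosome 9 (54980827 to 55048953), and Chrnb3 and Chrna6 lie side by side on chromosome 8. The nicotinic row had 448, 396 and 803 counts in Chrna5, 229, 213 and 343 in Chrna3 and 239, 231 and 351 in Chrnb4, and none was called. Adrb1 (56722117 to 56725150) and Adra2a (54045259 to 54048982) both lie on chromosome 19 but far apart. Counted spans differ somewhat from RefSeq spans.

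The H3K27me3 libraries held 2444487, 2535576 and 4203349 counts in named genes and the H3K4me3 libraries 645240, 420701 and 395133. Hhex itself had 332, 385 and 487 H3K27me3 counts and 60, 68 and 130 H3K4me3 counts, which is no check of the deletion, since the sources used here do not say which part was removed. Myeloid marker genes had a median H3K4me3 of 131, 112 and 110 CPM, with Ptprc at 0 counts in every library. The medians in floxed were 1.55 CPM for B-cell, 0 for T-cell, 10.8 for erythroid and megakaryocyte, 8.52 for stromal and endothelial and 0.775 for neuronal markers. The summed H3K4me3 counts of the 8 neuronal markers were 64, 60 and 57. Among 16 myeloid markers, 5 were measured for H3K27me3, and in rescue against floxed 1 was higher and 2 lower: Mpo had 5, 6 and 483 counts, Kit 255, 260 and 187 and Csf1r 38, 42 and 32. Their part in the receptor results was not tested.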

How the data were processed

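Gene tables for H3K27me3 and H3K4me3 hold raw whole-number counts, deposited by the authors in 27179 rows. Rows without a symbol (568, 0.608% to 0.739% of a library) were left out. Per the submitters' processing notes, the tools were featureCounts and MACS2 and the build mm10; the aligner and the versions are not given in the sources used here. Flag files hold summits with a −log10 score, deposited by the authors. No input library was used.

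Counts were scaled to the total of named genes and given as CPM, divided by span where genes were compared. Ratios carry a 95% exact conditional binomial (Clopper-Pearson) interval, for counting error only; a call needs a ratio of at least 1.5, an interval without 1 and a mean of at least 20 counts. Log2 ratios used a prior count of 1. With 1 library per group no test between groups was made. The script was tested on simulated data. Positions and promoters came from RefSeq on GRCm38.p6. The receptor genes and all lists were chosen with earlier results of these data known. Genes named are those called in any comparison (16), the 5 highest and lowest in H3K27me3 density, the 5 longest and shortest, all without coding introns, all with at least 20 H3K4me3 counts in a library, neighbours, and up to 3 called genes per direction of each pathway list. Some receptor genes are counted in the totals but are not reported here and are left out of the figures. Others named for their family or role were chosen after their values were seen. Alternatives used edgeR 4.0.16 TMM factors, DESeq2 1.42.0 size factors (R 4.3.3), a list of housekeeping genes (olfactory and vomeronasal receptor genes for H3K4me3), other minimum counts, a ratio of 2, a prior count of 5 and other span limits. Other steps used Python 3.11.15 with scipy 1.17.1 and pandas 2.3.3.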

Additional observations from a re-analysis of the deposited data

How the results depend on the processing

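No paired analysis was possible because each group has 1 library per mark, and for the same reason no library could be left out. Among the 16 called receptor genes, 161 of the log2 ratios recomputed under other settings kept their direction and call, 35 kept the direction and lost the call, and 0 reversed. The mean of 50 counts, the dropped filter and the ratio of 2 leave a log2 ratio unchanged, so it could not reverse there. Dropping the filter cannot lose a call either. The other scalings shift the ratios of a comparison together, by a factor of at most 1.22, which is less than a call requires. Under these settings the 0 was fixed in advance and is no check of direction. For H3K27me3 in deleted against floxed, scaling to housekeeping genes left 2 receptor genes higher with a median log2 ratio of -0.034, dropping the filter on low counts gave a median of 0.064, and a ratio of at least 2 left 0 lower and 0 higher. In rescue against deleted the median was 0.061 with edgeR's TMM factors, 0.032 with DESeq2's size factors and -0.16 with the housekeeping scaling, which gave 11 lower and 3 higher; a ratio of at least 2 left 2 lower and 2 higher. In rescue against floxed the median was 0.028 with TMM factors, 0.00036 with DESeq2's and -0.30 with the housekeeping scaling, which gave 9 lower, and a ratio of at least 2 left 0 lower. The causes of these shifts were not tested, apart from the stricter ratio, which by construction calls fewer genes. For H3K4me3 in deleted against floxed, TMM factors, a mean of at least 50 counts and a ratio of at least 2 each left 0 higher; the mean of 50 gave a median of 0.031, and no filter gave 2 higher. In rescue against deleted, scaling to olfactory and vomeronasal receptor genes gave 0 lower, 1 higher and a median of -0.16; the mean of 50 gave 0 lower and a median of -0.051, and no filter a median of 0. In rescue against floxed, that scaling gave 3 higher and a median of 0.23, the mean of 50 gave 0 higher, and no filter 3 higher. It moved the median of all measured H3K4me3 genes to 0.29 and 0.24 in the 2 rescue comparisons. Taking as short the list without coding introns gave median H3K27me3 densities of 6.80, 5.84 and 5.22 CPM per kb in floxed, deleted and rescue. Span limits of 5 and 50 kb gave 19.0, 12.6 and 17.4 for short, 3.59, 3.12 and 3.29 for middle and 0.278, 0.309 and 0.311 for long receptor genes. The Flag count stayed at 0 inside spans and for summits with a score of at least 10. For H3K4me3, 10 of 89 receptor genes (11.2%) reached the minimum of counts, beside 25.1% of all named genes, and the part of depth in this was not tested.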
